A study of Danio rerio with 2 samples.

Results

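Expression of 9 genes of the zebrafish (Danio rerio) chemokine system was measured in hearts: the ligand genes cxcl12a, cxcl12b, cxcl8a, cxcl18b and cxcl14 and the receptor genes cxcr4a, cxcr4b, ackr3a and ackr3b. They were taken by symbol, 9 of 32057 genes in the deposited count table, and each symbol matched 1 Ensembl gene. RNA came from hearts dissected at 96 hours post fertilisation and was read by RNA sequencing, with 1 library from foxc1a nju18 fish (the nju18 library) and 1 from wild-type fish labelled TU (the TU library). The labels give no other allele, no treatment and no number of pooled hearts. What the nju18 allele does to the foxc1a transcript is not stated in them, nor whether the fish were homozygous. There is 1 library per genotype, so differences have no replicate check and no p-value is given. Intervals are exact 95% intervals (Clopper-Pearson for ratios and shares) that cover only the error of counting reads, and they set 1 library against the other, not 1 genotype against the other.

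Chemokines are small secreted proteins that steer cells along concentration gradients through G protein-coupled receptors. Cxcl12 binds Cxcr4, which signals through inhibitory G proteins and directs migrating cells, and Ackr3, an atypical receptor that takes up the ligand and clears it from the tissue. The fish genome keeps an a and a b copy of each of these genes. In zebrafish, cxcl12a and cxcr4b are best known from lateral line and germ cell migration and cxcr4a from endothelium, including coronary vessel growth. In mouse, Foxc1 and Foxc2 act on the Cxcr4 gene in endothelial cells, and Foxc1 is needed by bone marrow stromal cells that are rich in Cxcl12. Cxcl8 and Cxcl18b attract neutrophils, and Cxcl14 is an old, strongly conserved chemokine found in epithelia.

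Reads assigned to genes came to 17467109 in the nju18 library and 20049851 in the TU library. foxc1a itself had 798 reads (50.5 CPM, counts per 1000000 reads of a library whose size was adjusted with TMM factors) in the nju18 library and 629 reads (28.4 CPM) in the TU library. That level does not check the genotype, and directions below are those of the labels. Markers of other tissues differed between the libraries. The 9 matched cardiomyocyte markers all had log2 ratios above 0 and summed to 25619 CPM in nju18 and 9318 CPM in TU, so heart muscle RNA was present in both. All 8 eye markers were at least 2-fold lower (summed 297 CPM in nju18 and 3004 CPM in TU), and 4 of 7 measured neuron markers were (168 CPM in nju18 and 366 CPM in TU). Of 9 measured skeletal muscle markers, 8 were at least 2-fold higher (13530 CPM in nju18 and 2766 CPM in TU). Of all genes at 5 CPM, 11.1% were at least 2-fold lower and 9.61% higher. Markers of epidermis and pharyngeal epithelium summed to 12119 CPM in nju18 and 5529 CPM in TU. Of 5 measured, 2 were at least 2-fold higher, krt91 (5433 CPM in nju18 and 1818 CPM in TU) and cyt1 (4931 and 1542 CPM). Below 1, within 2-fold, were krt4 (ratio 0.730) and tp63 (0.677), and cdh1 had a ratio of 1.22. Liver and gut markers summed to 594 CPM in nju18 and 312 CPM in TU, but did not share 1 direction. Of 7 measured, 3 were at least 2-fold higher (apoa1b, fabp10a and tfa). The 2 lower ones were fabp6 (ratio 0.0657) and prss1 (0.319). Cartilage markers summed to 1026 CPM in nju18 and 1510 CPM in TU, and lateral line markers to 591 CPM in nju18 and 740 CPM in TU. Of the lateral line sum, cldnb made up 499 CPM in nju18 and 642 CPM in TU. In that list atoh1a and pvalb9 had 0 reads in both libraries, and otofa went the other way (ratio 1.55). Some of these tissues also express chemokine genes, and the part of the tissues in the values below was not tested.

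Of the 9 genes, 8 had reads in both libraries and 1, ackr3a, had none in either. By CPM, cxcl18b was the highest and cxcl12a the next in both libraries. The gene cxcl8a came after ackr3b and cxcl14 in the nju18 library and before them in the TU library, and cxcr4a and cxcr4b changed places. One gene, cxcl8a, was 2-fold lower in the nju18 library, and no gene was 2-fold higher. Of the 12259 genes that reached 5 CPM in at least 1 library, 11.1% were at least 2-fold lower and 9.61% at least 2-fold higher, so 1 lower and 0 higher among 8 measured genes is a share near that of all genes. With a 1.5-fold rule the counts were again 1 lower and 0 higher, against 21.5% and 22.3% of all genes. With a 4-fold rule no member passed, against 2.08% of all genes lower and 1.45% higher. The median log2 ratio (CPM with 1 CPM added) of the 8 genes was -0.02, and that of all genes at 5 CPM was 0.04. In hearts taken whole, fewer cells of a type and less RNA per cell cannot be told apart.

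**Figure D1:**
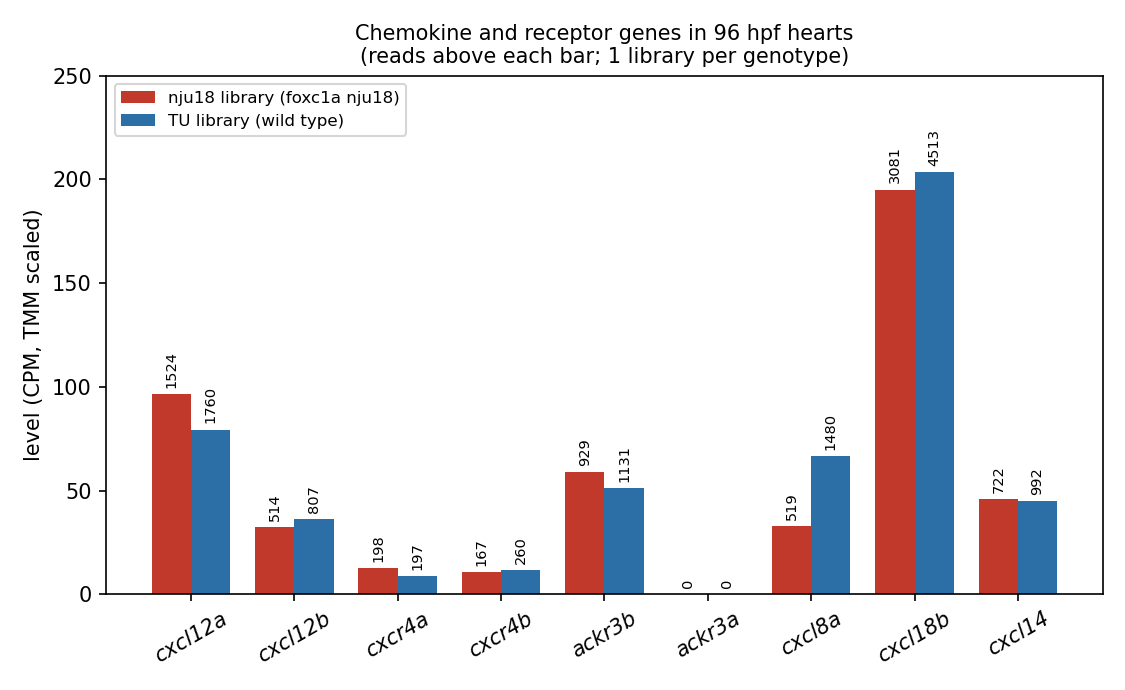
Level of each chemokine and receptor gene (vertical axis, CPM after TMM scaling) in the nju18 library (red) and the TU library (blue), with the number of reads above each bar. The cxcl8a bars differ most in proportion (519 reads in nju18 and 1480 in TU), and ackr3a has no bar because it had 0 reads in both.

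The ligand gene cxcl12a was the more abundant Cxcl12 copy in both libraries. It had 1524 reads in the nju18 library and 1760 in the TU library, which is 96.5 CPM in nju18 against 79.4 CPM in TU and gives a ratio of 1.22 (1.13 to 1.30). The second copy, cxcl12b, had 514 reads in the nju18 library and 807 in the TU library, or 32.5 CPM in nju18 and 36.4 CPM in TU, a ratio of 0.894 (0.799 to 1.0002). The copies thus lay on opposite sides of 1 under TMM scaling. With total-count scaling, which moved the median log2 ratio of all genes from 0.04 to -0.26, cxcl12a stood at -0.01 and cxcl12b at -0.44.

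The receptor copies likewise lay on either side of 1. cxcr4a had 198 reads in the nju18 library and 197 in the TU library, or 12.5 CPM in nju18 and 8.88 CPM in TU, a ratio of 1.41 (1.15 to 1.73). cxcr4b had 167 reads in the nju18 library and 260 in the TU library, or 10.6 CPM in nju18 and 11.7 CPM in TU, a ratio of 0.902 (0.738 to 1.0996). cxcr4a was the member with the largest positive log2 ratio, 0.45, and 28.2% of all genes at 5 CPM stood higher. It kept a positive sign with total-count scaling (0.19), where cxcr4b was at -0.40. Scaled to summed cardiomyocyte markers, cxcr4a was at -0.88 and cxcr4b at -1.47, so the sign of cxcr4a also depends on the scaling. In the RefSeq annotation of the GRCz12tu assembly cxcr4a overlaps the gene ical1, which had 121 reads in the nju18 library and 261 in the TU library, so that the division of reads between these genes is uncertain.

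All reads counted for the Ackr3 pair were those of ackr3b, the scavenger receptor gene. It had 929 reads in the nju18 library and 1131 in the TU library, or 58.8 CPM in nju18 and 51.0 CPM in TU, a ratio of 1.15 (1.06 to 1.26). Under TMM scaling its log2 ratio was 0.20, and under total-count scaling -0.08, so its direction depends on the scaling. ackr3a, the other copy, had 0 reads in both. At this depth a count of 0 allows up to 0.190 CPM in the nju18 library and 0.135 CPM in the TU library, taking 3 counts as the limit. That limit covers counting error only, and whether reads of this gene could be counted in these files was not tested. The leukocyte genes lyz, lck and cd4-1 also had 0 reads in both libraries.

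Within a library, the share of a copy in the reads of its pair needs no scaling between libraries. cxcl12a made up 74.8% of the Cxcl12 reads in the nju18 library (interval 72.8% to 76.7%) and 68.6% in the TU library (66.7% to 70.4%). cxcr4a made up 54.2% of the Cxcr4 reads in the nju18 library (49.0% to 59.4%) and 43.1% in the TU library (38.5% to 47.8%). The a copy therefore had the larger share of its pair in the nju18 library in both cases, with odds ratios of 1.36 (1.19 to 1.55) for the ligand and 1.56 (1.17 to 2.08) for the receptor. For the receptor, cxcr4b had more reads than cxcr4a in the TU library (260 against 197). In the nju18 library cxcr4a had more (198 against 167), but the interval of its share includes equal shares, and the overlap with ical1 adds an error that the interval does not cover. Whether such a shift exceeds the spread between hearts of 1 genotype cannot be told with 1 library each.

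Taking both copies together, ligand and receptor stood in almost the same proportion in the libraries. Levels of different genes are compared here per length, as FPKM deposited by the authors (fragments per kilobase of gene and 1000000 counted reads). Cxcl12 summed over both copies was 39.0 FPKM in the nju18 library and 43.0 FPKM in the TU library, and Cxcr4 summed to 12.3 FPKM in nju18 and 13.4 FPKM in TU. The ligand was thus 3.18 times the signalling receptor per length in the nju18 library and 3.20 times in the TU library. The odds ratio of their reads was 0.994 (0.854 to 1.16). Per length, ackr3b was 2.22 times Cxcr4 in the nju18 library and 2.15 times in the TU library, with an odds ratio of 1.03 (0.871 to 1.21). Cxcl12 against ackr3b gave 1.43 per length in nju18 and 1.49 in TU and an odds ratio of 0.967 (0.870 to 1.07). All 3 intervals hold 1, and together they reach from 0.854 to 1.21, so differences of proportion within that range are not resolved by these reads.

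**Figure D2:**
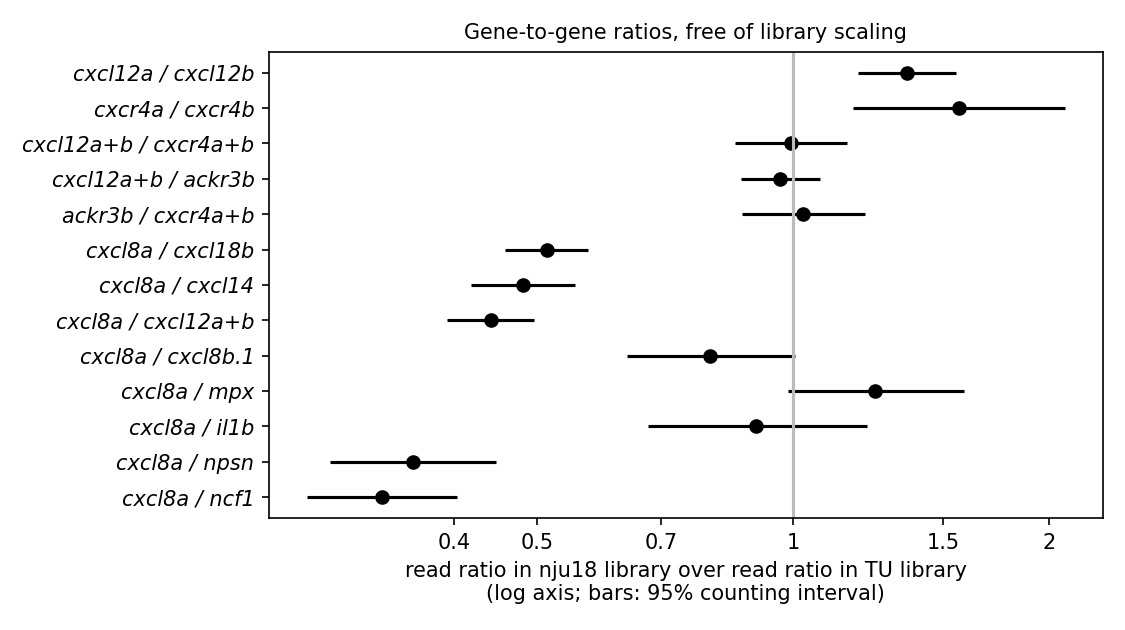
Ratio of the reads of a pair of genes in the nju18 library over the same ratio in the TU library (horizontal log axis), with 95% counting intervals, for pairs of the Cxcl12 axis and for cxcl8a against other genes. Ligand-to-receptor pairs sit at 1, the a-to-b copy pairs above 1 (1.36 and 1.56), and cxcl8a against cxcl18b, cxcl14 and Cxcl12 between 0.442 and 0.514. Against the neutrophil genes chosen for the figure, cxcl8a ranges from 0.329 (ncf1) to 1.25 (mpx), and the other genes of the neutrophil list are not shown.

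The neutrophil-attracting ligand gene cxcl8a was the member that differed most. It had 519 reads in the nju18 library and 1480 in the TU library, or 32.9 CPM in nju18 and 66.7 CPM in TU, a ratio of 0.492 (0.445 to 0.545). Its log2 ratio of -1.0003 lies on the 2-fold line, and the counting interval spans that line. Other scalings of the libraries placed it from -0.99 (DESeq2 size factors) to -1.28 (total count), so it was lower under each of these while the 2-fold rule was not passed with DESeq2 size factors. Scaled to summed markers of a cell type instead, it stood at -2.42 with cardiomyocyte, -1.04 with endothelial, -0.99 with pan-leukocyte and 0.26 with neutrophil markers, so that its direction depends on that choice. The neutrophil sum rests largely on 1 mmp13a gene (ENSDARG00000114451), and without it the value was -0.51. Among all genes at 5 CPM, 11.1% had a lower log2 ratio. The authors' deposited table lists cxcl8a with a log2 fold change of -1.06 and an FDR of 0.618 and makes no call.

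cxcl18b, the other neutrophil-attracting ligand gene of the group, hardly differed under TMM scaling. It had 3081 reads in the nju18 library and 4513 in the TU library, or 195 CPM in nju18 and 204 CPM in TU, a ratio of 0.959 (0.915 to 1.004). It was the most abundant chemokine gene in both libraries, ranking 409th by FPKM in the nju18 library and 343rd in the TU library. In RefSeq's GRCz12tu annotation it overlaps the gene gsk3bb, so that the division of reads between these genes is uncertain. cxcl14 had 722 reads in the nju18 library and 992 in the TU library, or 45.7 CPM in nju18 and 44.7 CPM in TU, a ratio of 1.02 (0.927 to 1.13). With total-count scaling, the log2 ratio of cxcl18b was -0.35 and that of cxcl14, 0.03 under TMM, was -0.25, close to the shift of all genes.

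**Figure D3:**
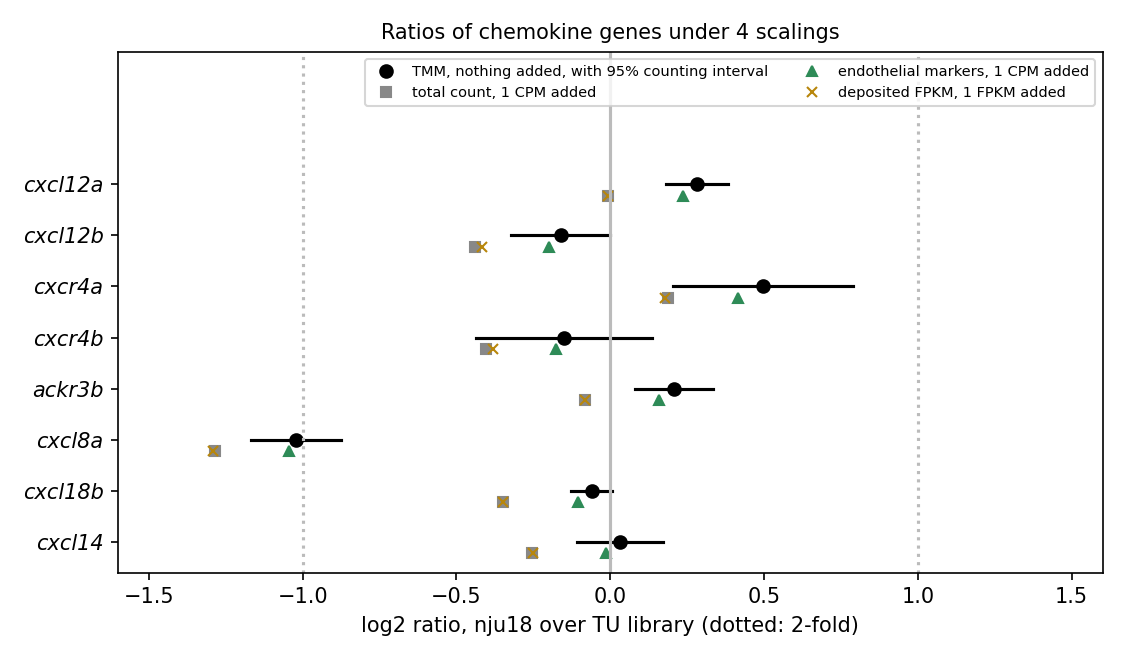
Log2 ratio of the 8 measured genes, nju18 over TU (horizontal axis, dotted lines at 2-fold), under TMM scaling with its 95% counting interval (black) and with total count, endothelial markers or deposited FPKM as the scale. Only cxcl8a lies near or beyond -1 under all 4, whereas cxcl12a, ackr3b and cxcl14 lie on either side of 0 depending on the scale.

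Set against cxcl18b, cxcl14 and Cxcl12 in the same library, cxcl8a was lower in nju18. These values need no scaling between libraries, but they use the same cxcl8a reads and are no separate evidence. Per length cxcl8a stood at 0.259 times cxcl18b in the nju18 library and 0.504 times in the TU library, with an odds ratio of 0.514 (0.459 to 0.574). The odds ratio was 0.482 (0.418 to 0.555) against cxcl14 and 0.442 (0.393 to 0.497) against Cxcl12. Against genes of neutrophils and inflammation the result went more than one way. The odds ratio was 0.358 (0.286 to 0.448) against npsn, a neutrophil astacin protease gene, and 0.329 (0.269 to 0.403) against ncf1, a subunit of the NADPH oxidase. The intervals held 1 against 3 others: 0.799 (0.638 to 1.005) against its paralog cxcl8b.1, 0.905 (0.675 to 1.22) against the cytokine gene il1b, and 1.25 (0.985 to 1.59) against mpx, the neutrophil myeloperoxidase gene. An interval that holds 1 does not show that the genes moved alike, and these 3 genes had fewer reads than cxcl8a. Other genes of the neutrophil list with ratios below the 0.492 of cxcl8a, namely lect2l (0.226) and both mmp13a genes (0.130 and 0.317), were not set against it.

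Values of the neutrophil list stood beside that of cxcl8a. Of its 11 genes, 8 were at 5 CPM or more, with a median log2 ratio of -1.04. Of these 8, 4 were at least 2-fold lower in the nju18 library and 0 higher, against 11.1% and 9.61% of all genes. These 4 were both genes with the symbol mmp13a, mpx and lect2l. With nothing added, 5 of the 8 were lower and 0 higher, against 12.9% and 11.3% of all genes. The further gene was cpa5 (ratio 0.495). Some genes of the list, cpa5, il1b and mmp13a among them, are not limited to neutrophils. Its counts and sum are therefore not those of neutrophils alone. mpx had 113 reads in the nju18 library and 402 in the TU library (7.16 CPM in nju18 and 18.1 CPM in TU). The more abundant mmp13a gene (ENSDARG00000114451), a matrix metalloproteinase gene also expressed outside neutrophils, had 153 reads in nju18 and 1653 in TU (9.69 CPM in nju18 and 74.5 CPM in TU), and lect2l had 29 in nju18 and 180 in TU. In the other direction, npsn had a ratio of 1.38 and ncf1 one of 1.497. The summed level of the list was 59.3 CPM in the nju18 library and 145 CPM in the TU library, or 49.6 CPM in nju18 and 70.3 CPM in TU without that mmp13a gene, and lyz had no read in either. The list's part in the cxcl8a value was not tested.

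Other leukocyte lists did not share one direction. Of 4 macrophage markers at 5 CPM, 1, the transcription factor gene irf8, was at least 2-fold higher (11.6 CPM in the nju18 and 5.05 CPM in the TU library) and 0 were at least 2-fold lower. Within 2-fold, marco had a ratio of 1.80 (1.34 to 2.44), mpeg1.2 one of 0.609 (0.504 to 0.732) and ctss2.1 one of 0.602 (0.450 to 0.798). The list summed to 42.6 CPM in nju18 and 44.4 CPM in TU. All 4 pan-leukocyte markers at 5 CPM lay within 2-fold (summed over the list, 441 CPM in nju18 and 446 CPM in TU), and cebpb, a gene not limited to leukocytes, made up 371 CPM of that in nju18 and 373 CPM in TU. coro1a had 0 reads in the nju18 and 4 in the TU library. In the lymphocyte list, lck and cd4-1 had no read in either library, and 1 of 3 measured genes was at least 2-fold higher, the B cell receptor gene cd79a (140 reads in nju18 and 14 in TU). The remaining measured genes were ikzf1, with a ratio of 0.596 (0.416 to 0.843), and ccr9a, with one of 0.960. Under 5 CPM, rag1 had 2 reads in nju18 and 38 in TU, rag2 had 4 and 21, and zap70 had 2 and 8. The 12 endothelial and endocardial markers summed to 926 CPM in nju18 and 898 CPM in TU. One of them, cldn5b, passed 2-fold, in the lower direction (ratio 0.328). Of the 12, 8 had log2 ratios above 0, the largest for erg (ratio 1.79) and etv2 (1.66), and 4 below 0. Mural markers, another possible source of Cxcl12, summed to 752 CPM in nju18 and 980 CPM in TU, and 3 of 7 were at least 2-fold lower. One of these 3, elnb, made up 199 CPM of the sum in nju18 and 470 CPM in TU. The others were cspg4 and pdgfrb. In the other direction, within 2-fold, tagln had a ratio of 1.85, myh11a one of 1.28 and acta2 one of 1.21. Epicardial markers summed to 34.6 CPM in nju18 and 50.7 CPM in TU, and 2 of 5 were at least 2-fold lower, or 3 with nothing added. In the other direction, aldh1a2 had a ratio of 1.65 (1.38 to 1.97). It made up 17.5 CPM of the sum in nju18 and 10.6 CPM in TU. No gene of the mural or the epicardial list was at least 2-fold higher. Of all genes at 5 CPM, 11.1% were at least 2-fold lower and 9.61% higher, or 12.9% and 11.3% with nothing added. The part of the cells of these lists in the values was not tested.

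**Figure D4:**
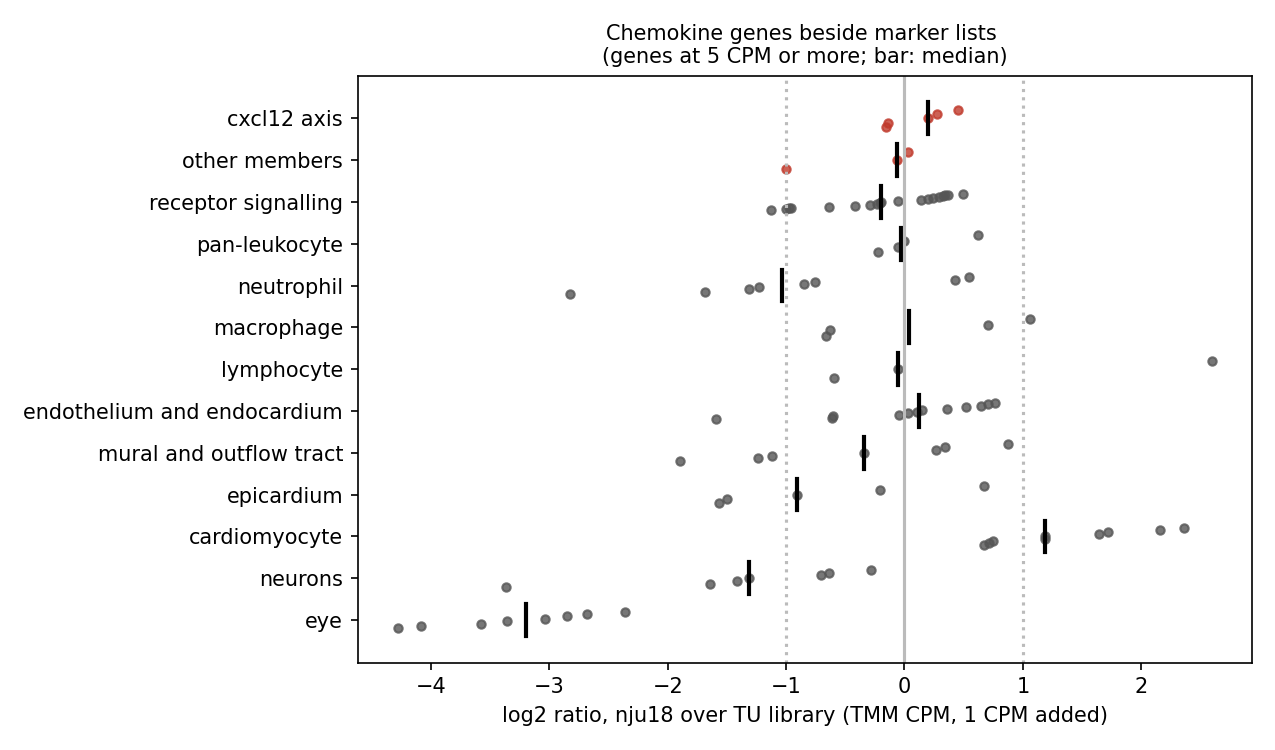
Log2 ratio (horizontal axis, nju18 over TU, TMM CPM with 1 CPM added) of each gene at 5 CPM or more in the chemokine members (red) and in lists of receptor signalling and cell markers (grey), with the list median as a bar. The members lie between -1.0003 and 0.45, whereas eye markers all lie below -2 and cardiomyocyte markers all above 0.

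The receptors that Cxcl8 uses were near the limit of detection. cxcr1 had 0 reads in the nju18 library and 9 in the TU library, a ratio of 0 whose counting interval reaches up to 0.711. cxcr2 had 0 reads in nju18 and 1 in TU, and no ratio is read from these counts. The Cxcl8 ligands were therefore measured in hearts in which their receptor genes were barely detectable at this depth.

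Among all chemokine ligands the members took most of the summed FPKM. The 52 ligand genes, named by the start of their symbol, summed to 357 FPKM in the nju18 library and 478 FPKM in the TU library, and the 5 ligand members held 74.0% in nju18 and 79.3% in TU. cxcl18b alone held 44.8% in the nju18 library and 42.8% in the TU library. cxcl8a held 11.6% in nju18 and 21.6% in TU, and cxcl12a 8.03% in nju18 and 6.04% in TU. Among 28 receptor genes, ackr3b held 51.3% of the summed FPKM in the nju18 library and 52.2% in the TU library. cxcr4a held 12.4% in nju18 and 10.3% in TU, and cxcr4b 10.8% in nju18 and 14.01% in TU. The atypical receptor gene ackr3b thus had the largest share of the receptor FPKM in both libraries.

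**Figure D5:**
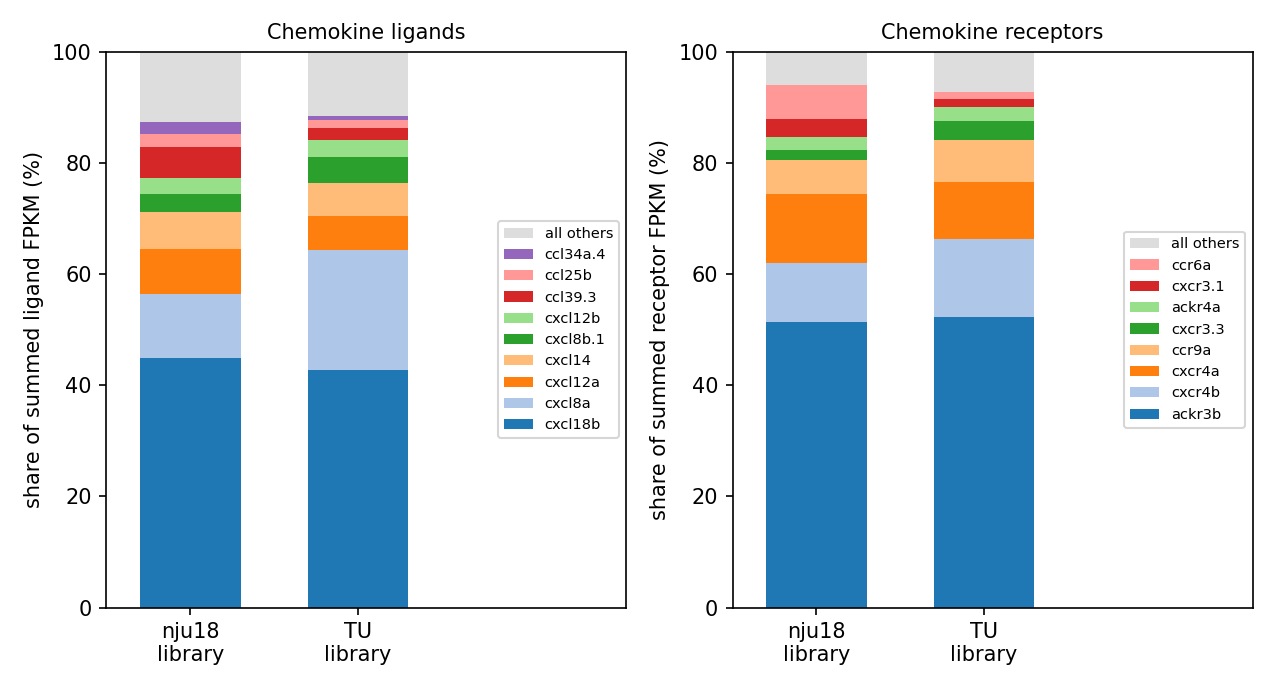
Share of the summed FPKM of all chemokine ligand genes (left) and all receptor genes (right) held by each gene, in the nju18 and the TU library. The share of cxcl8a is 11.6% in nju18 against 21.6% in TU, while that of ackr3b is 51.3% in nju18 and 52.2% in TU.

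Per length the members kept a similar order. In the nju18 library it was cxcl18b (160 FPKM), cxcl8a (41.5), cxcl12a (28.7), ackr3b (27.2), cxcl14 (23.9), cxcl12b (10.3), cxcr4a (6.57) and cxcr4b (5.71). In the TU library it was cxcl18b (204 FPKM), cxcl8a (103), ackr3b (28.9), cxcl12a (28.9), cxcl14 (28.6), cxcl12b (14.2), cxcr4b (7.75) and cxcr4a (5.69). The neighbours cxcl12a, ackr3b and cxcl14 lie too close for an order to be read, and without replicates no other step in the order has an error between samples.

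The other chemokine genes were mostly low. Of 71 further ligand and receptor genes, 19 had no read in either library and 12 reached 5 CPM. Of these 12, 4 were at least 2-fold higher in the nju18 library and 0 lower, with a median log2 ratio of 0.27 beside 0.04 for all genes and the 9.61% and 11.1% given above. With total-count scaling 1 was higher and 1 lower. The share of all genes under that scaling is not given, and the shares above hold for TMM scaling only. ccl25a, a ligand gene of the thymus that draws in lymphoid progenitors, had 575 reads in the nju18 library and 214 in the TU library, a ratio of 3.77 (3.22 to 4.43), and it is the 1 that stayed higher with total-count scaling. Its paralog ccl25b had 532 reads in nju18 and 526 in TU, a ratio of 1.42 (1.26 to 1.61), and their receptor gene ccr9a 106 in nju18 and 155 in TU, a ratio of 0.960 (0.743 to 1.24). The other genes past 2-fold were cxcl20 (170 reads in nju18 and 89 in TU), ccl39.3 (112 in nju18 and 66 in TU) and cxcr3.1 (87 in nju18 and 45 in TU, ENSDARG00000007358), a receptor gene of interferon-induced ligands. The ligand gene ccl38.1 had 37 reads in nju18 and 119 in TU, a ratio of 0.437 (0.293 to 0.636), and is not counted as lower because its log2 ratio with 1 CPM added is -0.93. With nothing added, 4 of the 12 were at least 2-fold higher and 1, ccl38.1, was lower, against 11.3% and 12.9% of all genes. cxcl8b.1 had 143 reads in nju18 and 326 in TU, a ratio of 0.616 (0.502 to 0.752). Chemokine genes of tandem clusters share sequence, so reads may be divided uncertainly between copies.

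Of 19 measured genes of receptor signalling, 1 was at least 2-fold lower, against 11.1% of all genes, 0 were higher and the median log2 ratio was -0.20, beside 0.04 over all genes. With nothing added, 4 of the 19 were at least 2-fold lower, against 12.9% of all genes, and 0 higher. The lower gene was stat3, a transcription factor activated by cytokine receptors, with 406 reads in the nju18 library and 1271 in the TU library (25.7 CPM in nju18 and 57.3 CPM in TU, ratio 0.449). The further 3 that were lower with nothing added, but not with 1 CPM added, were prex1, an exchange factor for Rac (ratio 0.461), grk3, a kinase of activated receptors (0.466), and rgs1, which shortens G protein signalling (0.494). The inhibitory G protein genes lay on both sides of 1, with ratios of 1.15 for gnai1, 1.41 for gnai2a and 0.732 for gnai2b. A further one, gnai3, was under 5 CPM in both libraries, with 35 reads in nju18 and 106 in TU, a ratio of 0.464. The arrestin gene arrb2b had a ratio of 1.26. With total-count scaling the list median was -0.49.

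The authors' deposited table lists all 8 measured members and calls none of them different. That table calls no gene with an absolute log2 fold change under 1.51, where all 8 members lie, so the lack of a call adds nothing to their size. Its largest absolute log2 fold change among them is that of cxcl8a, and the FDR values run from 0.618 to 0.981. Over all 23256 genes that table calls 4.24% higher and 7.63% lower. Of the 47 other chemokine genes it lists, it calls 5 higher (10.6%) and 4 lower (8.51%). The higher ones are ccl25a, ccl19a.2, ccl36.1, cxcl8b.3 and ccr6a, and the lower ones ccl20a.3, ccl27a, ccl35.1 and cxcl19. Apart from ccl25a, these were all under 5 CPM in both libraries and are named because the authors' table calls them, after their values were seen.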

How the data were processed

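The genotype label of a sample gave its group. Per the submitters' processing notes, bcl2fastq, Trimmomatic, HISAT2 and featureCounts were used with GRCz11. Versions and settings (strand included) are not given in the sources used here, which leaves reads of overlapping genes and close copies uncertain.

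Raw read counts per gene were deposited by the authors. The deposited FPKM equals the count over the total count of its library and over 1 length per gene. The deposited comparison table holds a signal per library (counts over size factors, 0.854 in the nju18 and 1.17 in the TU library), a fold change (ratio) of these with 0.01 added, its log2 value, and an FDR, used as a q-value, per the file headers. Its name gives EBSeq, but the version and settings behind the FDR are not given.

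Counts were scaled with TMM factors of 0.904 (nju18) and 1.11 (TU) (edgeR 4.0.16, R 4.3.3). A log2 ratio is nju18 over TU, after adding 1 CPM on both sides, and so understates the difference of a low gene; ratios printed without log2 have nothing added. A 2-fold rule on that scale stood in place of a test, over genes that reached 5 CPM in at least 1 library. Intervals of ratios and shares came from binomial and conditional odds ratio methods of scipy 1.17.1; without molecular identifiers, reads are no independent molecules. The scripts were tested on simulated counts.

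The members and lists were chosen with earlier results of these data known. Named genes are the 9 members, foxc1a, up to 12 other chemokine genes past 2-fold, and up to 4 genes of each list; others named for comparison were chosen after their values were seen. The alternatives for the scaling were total counts, size factors of DESeq2 1.42.0, a total without the 7 genes over 1% of a library, and summed markers (for neutrophils also without 1 mmp13a gene). The other alternatives were 0, 0.25 or 5 CPM added, deposited FPKM with 1 FPKM added, no filter or one of 20 CPM, and 1.5-fold and 4-fold rules.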

Additional observations from a re-analysis of the deposited data

How the results depend on the processing

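No paired analysis was possible because each genotype has 1 library. The median log2 ratio of the 8 measured members, -0.02, moved to -0.30 with total-count scaling, -0.28 with the total without genes over 1%, -0.30 with deposited FPKM, -1.43 when scaled to cardiomyocyte markers and 1.26 when scaled to neutrophil markers, or 0.48 without the abundant mmp13a gene, both added after seeing the data, as was the rule with nothing added. Scaled to neutrophil markers, cxcl8a changed sign, to 0.26; without that gene it was -0.51. The value of cxcl8a stood between -0.92 and -1.29 under all scalings and added values not based on markers. The count of members 2-fold lower was 1, and 0 with DESeq2 size factors, with 5 CPM added and with the 4-fold rule. None of these settings gave a member 2-fold higher, but marker scalings were not counted. Scaled to neutrophil markers, all measured members but cxcl8a stood more than 2-fold higher, from 1.04 (cxcr4b) to 1.62 (cxcr4a). Without the abundant mmp13a gene the highest was 0.91 (cxcr4a). Scaled to cardiomyocyte markers, all but cxcr4a (-0.88) stood more than 2-fold lower. Of the other chemokine genes, 4 were higher; this was 1 with the 20 CPM filter, 5 CPM added, deposited FPKM or total count, 2 with the total without genes over 1%, 8 with no filter and 0 with the 4-fold rule. None of them was lower. That count was 1 with 0.25 CPM or nothing added, deposited FPKM, total count or the total without genes over 1%. It was 3 with no filter. With the 1.5-fold rule 5 of the 12 at 5 CPM were higher and 4 lower, against 22.3% and 21.5% of all genes. With the 4-fold rule 0 were higher and 0 lower, against 1.45% and 2.08%. No share of all genes is given here for the other filters and scalings. The receptor signalling median, -0.20, was -0.49 with total count and -0.47 with the total without genes over 1%. Of 88 values of single members under alternatives, 46 moved by less than their counting interval's half-width on the log2 scale. The reads limit cxcr4a and cxcr4b most.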

Other observations

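Some of the authors' calls among low chemokine genes rest on few reads. In the authors' deposited table cxcl19, ccl35.1 and ccl20a.3 have log2 fold changes of -11.28, -11.12 and -10.42. These genes had 0 reads in the nju18 library and 29, 26 and 16 reads in the TU library, so that the size of each fold depends on the 0.01 that was added. Against a limit of 3 counts per library, and taking the TU reads as exact, cxcl19 was at least 6.88-fold lower, ccl35.1 at least 6.17-fold lower and ccl20a.3 at least 3.80-fold lower in the nju18 library. The counting intervals of the ratios reach up to 0.190, 0.214 and 0.364 for these 3 genes. In the other direction, ccl19a.2, a gene of the Ccl19 family, had 45 reads in the nju18 library and 4 in the TU library, a ratio of 15.8 (counting interval 5.76 to 60.5). The like-named gene ccl19a.1 had 32 reads in nju18 and 73 in TU, a ratio of 0.616 (0.393 to 0.945). The receptor gene ccr6a had 70 reads in the nju18 library and 19 in the TU library, a ratio of 5.17 (3.08 to 9.10).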
